A study of Mus musculus with 6 samples.

Results

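Mesothelial cells form the thin sheet that covers the lung surface and lines the chest cavity. In the fetus this sheet is a source of growth factors and of retinoic acid for the mesenchyme beneath it, and some of its cells move inward and become mesenchymal cells. The mature sheet is recognised by surface proteins such as mesothelin and uroplakins, by simple keratins, and by the transcription factor WT1.

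The genes described here are 9 markers of this sheet, Msln, Upk3b, Upk1b, Lrrn4, Gpm6a, Krt19, Aldh1a2, Wt1 and Bnc1, taken as every probe set whose platform gene symbol is one of these names. They had 14 probe sets of 45037 on the array, and 9 of 18193 genes. All 14 passed the filter on low values, which kept 27022 probe sets with a mean log2 signal of at least 4.

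Whole fetal lungs of mice at stage E18.5, just before birth, were measured on Affymetrix arrays, 1 array per animal. Nfib, which encodes the transcription factor nuclear factor I B, was floxed in all 6 animals. The control group, Nfibf/f, held 3 animals without Cre, and the other group, Nfibf/f, Dermo1-Cre, held 3 animals with Cre recombinase driven from the Dermo1 (Twist2) locus, which is active in mesenchyme. The sources used here do not state whether this Cre acts in mesothelial cells. The comparison asks how mesenchymal Nfib bears on lung maturation. Signals are log2 values, and a difference is the Cre-labelled mean minus the control-labelled mean with its standard error (SE) from a limma fit over all tested probe sets. A gene is called changed at an adjusted p under 0.05 (Benjamini-Hochberg over all tested probe sets), and gene-level values use the probe set with the highest mean.

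The labels could not be checked on the targeted gene. The probe set of Nfib with the highest mean read 10.24, 10.32 and 10.17 in the control-labelled and 11.24, 11.16 and 11.49 in the Cre-labelled lungs, a difference of 1.05 ± 0.12 SE (limma adjusted p = 0.0049). Of 7 Nfib probe sets 6 were tested and 5 rose. The position of these probes with respect to the floxed exon is not stated in those sources, so the groups are called by their labels throughout. Over all probe sets, pairs of arrays correlated at 0.940 to 0.950 within a group and at 0.931 to 0.949 between groups. The labelled tissue had its own markers: the means of the pan-epithelial and lung mesenchyme lists were at least 8.56 and 9.80 on every array.

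Mesothelin was lower in the Cre-labelled lungs, and most other mesothelial genes were not called. Of the 9 genes, Msln and Krt19 fell, none rose and 7 did not pass. At an unadjusted p under 0.05 in limma, 4 of the 9 were lower and 0 higher, against 9.97% and 9.5% of all tested probe sets. Over all tested probe sets, 3.56% were called, 2.16% lower and 1.41% higher. The mean of 7 of the 9 genes was lower, against 49.9% of all tested probe sets, and the median difference was -0.45, against 0.001 for all tested probe sets. A lean to lower means was not particular to these genes. It was seen in 8 of 8 immune genes (median -0.36, 3 called lower) and 8 of 9 endothelial genes (-0.32). Of 15 pan-epithelial genes 12 were lower (-0.25), but of 11 lung mesenchyme genes only 4 (0.02). For 3 genes, Msln, Krt19 and Aldh1a2, all Cre-labelled arrays lay below all control-labelled arrays, which held for 12.8% of all tested probe sets. None of the 9 genes had all Cre-labelled arrays above all controls, which held for 13.3%. In these whole lungs, fewer mesothelial cells and less RNA per cell cannot be told apart.

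**Figure D1:**
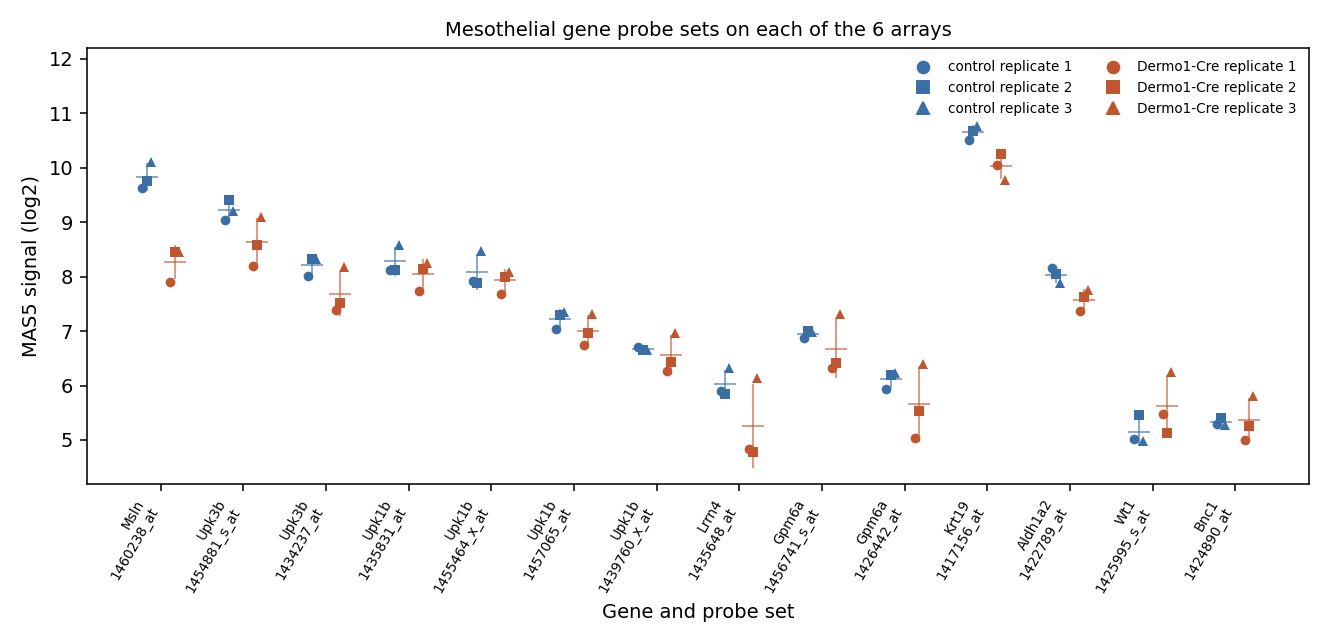
MAS5 signal (log2) of the 14 probe sets of the 9 mesothelial genes on each array, with control-labelled lungs in blue and Cre-labelled lungs in orange; marker shape gives the replicate, the horizontal tick the group mean and the vertical line 1 SD (n = 3). Msln separates the groups most widely, while the triangles of Cre-labelled replicate 3 lie above all control-labelled values for both Gpm6a probe sets, Wt1, Bnc1 and 1 of the 4 Upk1b probe sets.

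Msln encodes mesothelin, a surface glycoprotein anchored in the mesothelial membrane. Its probe set (1460238_at) read 9.62, 9.76 and 10.10 in the control-labelled lungs and 7.91, 8.45 and 8.46 in the Cre-labelled lungs. Every Cre-labelled value was more than 1 log2 unit below the lowest control-labelled value. The means were 9.83 ± 0.25 (SD, n = 3) and 8.27 ± 0.32 (SD, n = 3), a 2.93-fold fall (log2 difference -1.55 ± 0.17 SE, limma adjusted p = 0.0049). By size it ranked 53 among the 583 probe sets called lower. The call held in all 6 fits without 1 array, with differences from -1.66 to -1.37. An exact permutation test gave p = 0.10, two-sided, the smallest that 3 against 3 arrays allow.

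The uroplakins are membrane proteins best known from the bladder lining, and Upk3b and Upk1b are also expressed by mesothelium. The Upk3b probe set with the highest mean (1454881_s_at) read 9.04, 9.40 and 9.21 in the control-labelled and 8.19, 8.59 and 9.10 in the Cre-labelled lungs. Replicates 1 and 2 of the Cre-labelled group were below every control-labelled array, and replicate 3 was within their range. The difference of -0.59 ± 0.20 SE was not called (limma adjusted p = 0.15). The second Upk3b probe set (1434237_at) had the same order of arrays and a difference of -0.53 ± 0.20 SE. Without Cre-labelled replicate 3 both passed, with differences of -0.83 and -0.77 (limma adjusted p = 0.047 and 0.039). This was the only 1 of the 6 fits without 1 array, and of all 17 alternative fits, in which either passed. Over those 6 fits the differences ranged from -0.83 to -0.37 and from -0.77 to -0.38.

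Upk1b had 4 probe sets, and none was called in limma (0 at an unadjusted p under 0.05). The one with the highest mean (1435831_at) read 8.13, 8.13 and 8.58 in the control-labelled and 7.73, 8.14 and 8.26 in the Cre-labelled lungs, so the groups overlapped. Its difference was -0.24 ± 0.17 SE (limma adjusted p = 0.49), and the other 3 had differences of -0.16, -0.23 and -0.11. The remaining uroplakins, Upk1a, Upk2 and Upk3a, were tested and none was called (1 at an unadjusted p under 0.05). Of these, Upk3a, a partner of the bladder uroplakin complex, read 6.78, 7.06 and 7.02 against 6.67, 6.44 and 6.45, a difference of -0.43 ± 0.15 SE with no overlap. Upk1a had a difference of -0.17 ± 0.18 SE and Upk2 one of -0.15 ± 0.20 SE.

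Lrrn4 encodes a membrane protein with leucine-rich repeats. It read 5.90, 5.84 and 6.32 in the control-labelled lungs and 4.84, 4.78 and 6.14 in the Cre-labelled lungs. Replicates 1 and 2 were thus about 1 log2 unit below the controls, while replicate 3 was inside their range. The difference was -0.77 ± 0.35 SE (limma adjusted p = 0.27), and -1.21 without Cre-labelled replicate 3 (adjusted p = 0.051). Over the 6 fits without 1 array it ranged from -1.21 to -0.53 and was called in none. With an offset of 64 added to the linear signal the difference was -0.31, since the signal is low.

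Gpm6a encodes a proteolipid-type membrane glycoprotein known mainly from neurons. Its probe set with the highest mean (1456741_s_at) read 6.87, 7.0 and 6.98 in the control-labelled and 6.33, 6.41 and 7.32 in the Cre-labelled lungs. The controls spanned 0.13 and the Cre-labelled arrays 0.99, with replicates 1 and 2 below and replicate 3 above the control range. The difference was -0.27 ± 0.24 SE (limma adjusted p = 0.61), and -0.46 ± 0.31 SE for the second probe set (1426442_at). Without Cre-labelled replicate 3 these were -0.58 and -0.83, neither of them called (adjusted p = 0.096 and 0.13). Over the 6 fits without 1 array they ranged from -0.58 to -0.09 and from -0.83 to -0.15, and none was called.

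Krt19 encodes a simple keratin that mesothelium shares with the lung epithelium. It read 10.51, 10.67 and 10.77 in the control-labelled and 10.05, 10.25 and 9.78 in the Cre-labelled lungs. Here replicate 3 was the lowest of the Cre-labelled arrays, whereas it was the highest of them for the other 8 genes, though only just for Msln. The fall of Krt19 was 1.54-fold (log2 difference -0.63 ± 0.14 SE, limma adjusted p = 0.039). The call held in 1 of the 6 fits without 1 array, that without Cre-labelled replicate 2, and in 8 of all 17 alternative fits.

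Epithelial genes were read beside Krt19. The mean of 15 pan-epithelial genes was 8.81 to 9.06 on the control-labelled and 8.56 to 8.80 on the Cre-labelled arrays, lowest on replicate 3. Of the 15 genes 12 had a lower mean, against 49.9% of all tested probe sets, with a median difference of -0.25. None of the 15 was called in limma. At an unadjusted p under 0.05 in limma 3 were lower and 2 higher, against 9.97% and 9.5% of all tested probe sets. They did not share 1 direction: Cldn3, a tight junction gene, had a difference of -0.85 ± 0.24 SE, and Epcam, an epithelial adhesion gene, one of 0.32 ± 0.12 SE, both without overlap and both named after their values were seen. The keratin genes Krt8 and Krt18, which encode the partner keratins of simple epithelia and mesothelium, had differences of -0.38 ± 0.13 SE and -0.30 ± 0.17 SE. Both are in the epithelial list and among the further mesothelial genes. With the mean of the epithelial list as a covariate the difference of Krt19 was -0.42 and was not called (limma adjusted p = 0.35), and that of Msln was -1.51 (adjusted p = 0.060). That fit called 77 probe sets in all, against 963 without the covariate. The list mean did not overlap between the groups, so the fit cannot fully separate this covariate from the group label.

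Aldh1a2 encodes the retinaldehyde dehydrogenase that makes retinoic acid in the fetal mesothelium. It read 8.16, 8.05 and 7.89 in the control-labelled and 7.37, 7.62 and 7.76 in the Cre-labelled lungs. The groups did not overlap, but the highest Cre-labelled and the lowest control-labelled array were close. The difference of -0.45 ± 0.13 SE, 1.37-fold, was not called (limma adjusted p = 0.098). It was negative in all 17 alternative fits and past the threshold in none of them.

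None of the other retinoic acid genes was called in limma. Of 16 with a probe set 10 were tested, 5 with a lower and 5 with a higher mean, and their median difference was -0.07. At an unadjusted p under 0.05 in limma 3 of the 10 were lower, against 9.97% of all tested probe sets. The related enzyme gene Aldh1a1, which is strong in lung epithelium and stroma, read 9.74, 10.04 and 10.04 against 9.28, 9.47 and 9.57, a difference of -0.50 ± 0.12 SE without overlap (limma adjusted p = 0.056). Dhrs3, which encodes an enzyme that turns retinaldehyde back to retinol, had a difference of -0.51 ± 0.17 SE. The receptor genes Rarg and Rxrb had differences of 0.08 ± 0.16 SE and 0.14 ± 0.20 SE.

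The transcription factor genes Wt1 and Bnc1 were not called, and their signals were low, with control-labelled means of 5.15 and 5.33. Neither reached the alternative filter at the 60th percentile. Wt1, which encodes a zinc finger factor of the mesothelium, read 5.01, 5.45 and 4.98 in the control-labelled and 5.47, 5.13 and 6.25 in the Cre-labelled lungs. The highest value was on Cre-labelled replicate 3, and the groups overlapped. The difference was 0.47 ± 0.30 SE (limma adjusted p = 0.44), and 0.15 without Cre-labelled replicate 3. Over the 6 fits without 1 array it ranged from 0.15 to 0.71 and was called in none. With an offset of 64 added to the linear signal it was 0.20. Bnc1, the gene of the zinc finger factor basonuclin 1, read 5.29, 5.41 and 5.28 against 5.0, 5.26 and 5.81. Its difference was 0.03 ± 0.24 SE (adjusted p = 0.96), and its sign turned without Cre-labelled replicate 3 (-0.19).

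RefSeq promoters (GRCm38.p6) were at hand for 5 of the 9 genes, with 6 start sites. The 4 genes without one were Msln, Krt19, Upk1b and Wt1. The 2 called genes, Msln and Krt19, were thus not searched. In the 250 bases upstream of each start, both strands were searched for the nuclear factor I palindrome (TTGGC and GCCAA with 5 bases of any kind between them), for its arm TTGGC alone, and for GCGTGGG, the core of the WT1 motif. The arm is a stretch of the palindrome, so these searches overlap. The palindrome was in none of the 6 and in 0.0365% of 32851 promoters of this length. At that rate its absence from 6 promoters is uninformative. The arm was in 1 of 6, that of Gpm6a, against 41.5% of all promoters. The WT1 core was also in 1 of 6, that of Aldh1a2, against 4.30% of all. These are matches of letters and not shown sites. The promoters holding a match are shown 5′ to 3′ on the gene's strand, with the match in capitals. The match starts 128 bases upstream of the Aldh1a2 start (chr9:71215539-71215788, plus strand) and 84 bases upstream of the Gpm6a start (chr8:54954478-54954727, plus strand).
Aldh1a2: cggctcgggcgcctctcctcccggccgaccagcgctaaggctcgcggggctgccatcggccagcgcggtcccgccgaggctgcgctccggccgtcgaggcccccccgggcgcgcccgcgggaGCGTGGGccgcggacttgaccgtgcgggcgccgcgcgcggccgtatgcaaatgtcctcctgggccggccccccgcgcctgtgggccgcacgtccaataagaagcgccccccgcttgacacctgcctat
Gpm6a: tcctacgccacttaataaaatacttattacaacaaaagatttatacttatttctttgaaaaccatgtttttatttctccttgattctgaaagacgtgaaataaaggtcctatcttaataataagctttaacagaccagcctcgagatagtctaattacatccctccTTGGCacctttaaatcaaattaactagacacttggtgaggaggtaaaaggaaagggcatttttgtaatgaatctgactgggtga
The 2 sequences also differ in base composition, with 77.6% G and C in the first and 33.6% in the second.

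The Cre-labelled lungs were not alike in these genes. On replicate 1, 8 of the 9 genes were below the control range and 1, Wt1, was above it. On replicate 2, 7 were below and none above. On replicate 3, 3 genes, Msln, Krt19 and Aldh1a2, were below and 3, Gpm6a, Wt1 and Bnc1, were above. The share of all tested probe sets outside the control range on each array was not computed, so these counts are given as a description. The median departure of the 9 genes from the control mean was -0.62, -0.42 and -0.02 on replicates 1, 2 and 3. The spread of Lrrn4 among the Cre-labelled arrays, 1.35, and of Wt1, 1.12, exceeded the 90th percentile of all tested probe sets, 0.90, as did Gpm6a at 0.99. That percentile covers all signal levels, and low values are noisy. The mean signals of Lrrn4, Wt1 and Gpm6a lay at percentiles 57.6, 54.8 and 70.1. Their spread was not compared with that of probe sets of like signal.

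**Figure D2:**
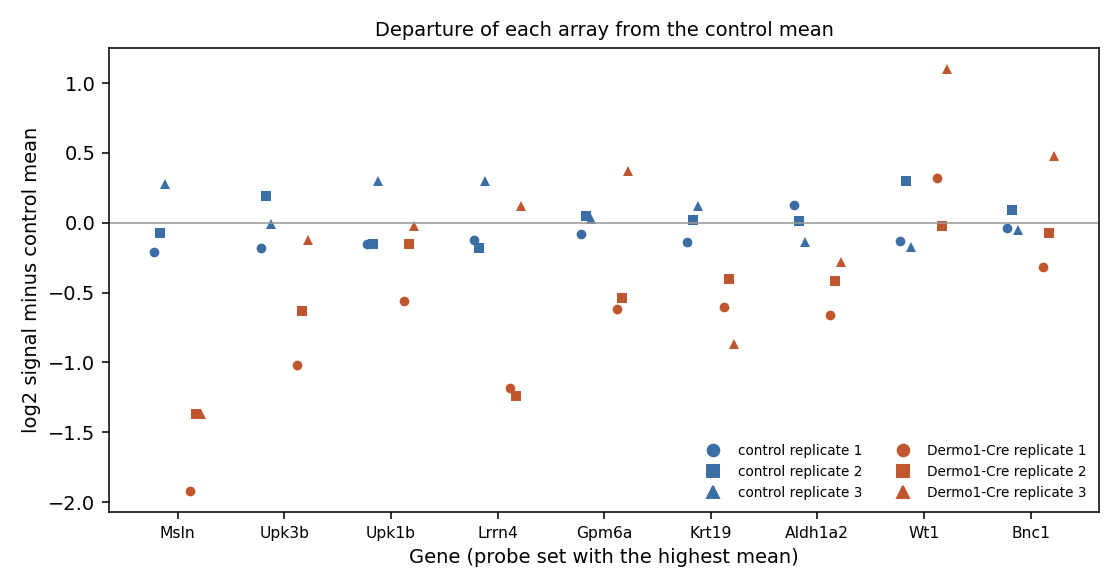
Log2 signal of each of the 9 mesothelial genes on each array minus the mean of the control-labelled arrays, for the probe set with the highest mean. Cre-labelled replicate 3 lies between -0.28 and 1.10 for 7 genes but at -1.37 for Msln and -0.87 for Krt19.

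Pairs of these genes shared their order of arrays to different degrees. Over the 6 arrays, which include both groups, the 36 pairs had Pearson correlations with a median of 0.61, given as a description. The highest was 0.92, for Lrrn4 with Gpm6a, and Msln went most closely with Krt19 (0.88) and Aldh1a2 (0.85). Wt1 was at -0.50 with Msln and -0.78 with Krt19, and at 0.71 with Bnc1. The lung gene whose signal was most like the mean of the 9 was Tmprss4, a membrane serine protease gene (r = 0.999 over 6 arrays), followed by Tmed5, Gphn, Kif9, Fam117b, Vldlr, Gpam and Slc25a51 (r of at least 0.984). None of these 8 was called in limma (3 at an unadjusted p under 0.05), and 178 of 12253 genes compared had r of at least 0.9.

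The change of Msln was also read against the other mesothelial genes on the same array, a ratio that scaling of the array leaves untouched. The log2 ratio of Msln to Upk3b was 0.58, 0.36 and 0.90 on the control-labelled and -0.28, -0.13 and -0.64 on the Cre-labelled arrays. Its group means were 0.61 ± 0.27 and -0.35 ± 0.26 (SD, n = 3 each), a difference of -0.96. Against Upk1b the ratio was 1.48, 1.63 and 1.52, and then 0.18, 0.32 and 0.20. Against each of the other 8 genes the ratio was lower on every Cre-labelled array than on any control-labelled one, with differences from -2.02 (Wt1) to -0.79 (Lrrn4). The 8 ratios share the Msln values. Msln had the largest fall of these genes on the same arrays (log2 difference -1.55), and the next largest was that of Lrrn4 (-0.77). A lower mean ratio against each of the other genes thus followed from taking Msln as the numerator. The 8 lower ratios are therefore not a separate test of a change particular to Msln. An exact permutation test of 3 against 3 arrays cannot go below p = 0.10, so it could not decide at 0.05 whether Msln changed more than the others, and these ratios are given as a description.

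Further genes of mesothelium moved in both directions. Of 22 further genes used as mesothelial markers or found in mesothelium, 21 had a probe set and 20 were tested. Of these 3 rose, 1 fell and 16 did not pass, and 16 had a lower mean, with a median difference of -0.22. Over all tested probe sets 1.41% were called higher and 2.16% lower, and 49.9% had a lower mean. Calb2 encodes the calcium-binding protein calretinin, a mesothelial marker that neurons also make. It read 6.43, 6.66 and 6.19 in the control-labelled and 7.89, 7.57 and 7.45 in the Cre-labelled lungs. It was higher on every Cre-labelled array, by 2.32-fold (log2 difference 1.21 ± 0.17 SE, limma adjusted p = 0.0091), and passed in all 6 fits without 1 array. With the epithelial covariate it was 1.19 and not called (adjusted p = 0.10). Msln and Calb2, both mesothelial markers, thus went in opposite directions on all 3 Cre-labelled arrays.

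Clu, the gene of the secreted chaperone clusterin, which many cell types make, rose by 0.88 ± 0.14 SE (limma adjusted p = 0.015), and all 4 of its probe sets were called higher. Its call was lost when Cre-labelled replicate 1 was left out (0.82, adjusted p = 0.056) and held in the other 5 such fits. With the epithelial covariate Clu was at 0.73, Nkain4 at 0.42 and Tm4sf1 at -0.50, none of them called (adjusted p = 0.18, 0.27 and 0.18), and Clu was also not called without the intensity trend (adjusted p = 0.071). It read 9.92, 9.95 and 9.45 in the control-labelled and 10.76, 10.61 and 10.57 in the Cre-labelled lungs, with no overlap. Nkain4, whose protein interacts with the sodium pump, rose by 0.46 ± 0.10 SE (adjusted p = 0.037) but passed in none of the 6 fits without 1 array. The membrane protein gene Tm4sf1 read 9.81, 10.00 and 10.09 against 9.35, 9.42 and 9.21 and fell by 0.64 (SE 0.11, adjusted p = 0.017). It passed in 2 of those 6 fits, those without control-labelled replicate 1 or Cre-labelled replicate 2. Of the 3 Tm4sf1 probe sets 2 were tested and 1 was called. The secreted binding protein gene Igfbp5 had a difference of -0.03 ± 0.15 SE.

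Muc16, which encodes the mucin that binds mesothelin, was picked for its array pattern after its values were seen. It read 6.04, 6.15 and 6.29 in the control-labelled and 5.19, 5.21 and 6.27 in the Cre-labelled lungs. As with Lrrn4, replicates 1 and 2 were low and replicate 3 was within the control range, and the difference of -0.60 ± 0.29 SE was not called (limma adjusted p = 0.29). Over the 20 further genes, 14, 12 and 7 were below the control range on Cre-labelled replicates 1, 2 and 3, and 3, 4 and 6 above it. For these counts, too, the share over all tested probe sets was not computed.

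**Figure D3:**
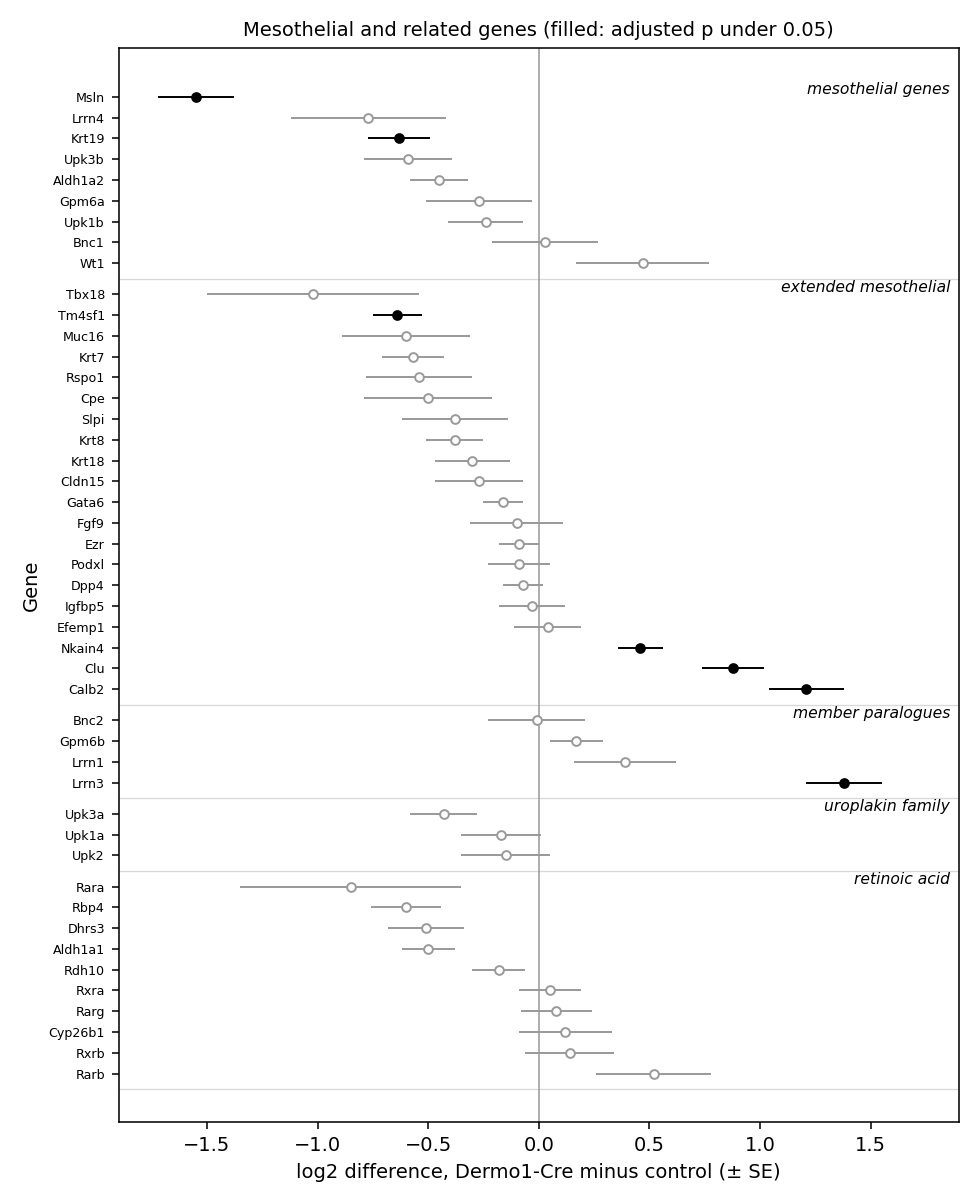
Log2 difference, Cre-labelled minus control-labelled, with its limma SE (n = 3 against 3), for the tested mesothelial genes, further mesothelial genes, paralogues, other uroplakins and retinoic acid genes; filled points passed an adjusted p of 0.05. Msln at -1.55 lies farthest left, and Lrrn3 at 1.38 and Calb2 at 1.21 lie farthest right.

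Relatives of these genes gave 1 call. Lrrn3, a paralogue of Lrrn4 known from the nervous system, read 6.34, 6.13 and 5.93 in the control-labelled and 7.71, 7.30 and 7.52 in the Cre-labelled lungs. It rose 2.60-fold (log2 difference 1.38 ± 0.17 SE, limma adjusted p = 0.0055) with no overlap, and passed in all 6 fits without 1 array. With the epithelial covariate it was 1.26 and not called (adjusted p = 0.074). Its direction was opposite to that of the Lrrn4 mean. Of the other paralogues, Lrrn1 had a difference of 0.39 ± 0.23 SE, Gpm6b one of 0.17 ± 0.12 SE and Bnc2 one of -0.01 ± 0.22 SE.

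Other tissues differed between arrays. The mean of 10 cardiac muscle genes was 9.68, 8.75 and 7.56 on the control-labelled and 6.63, 7.11 and 8.25 on the Cre-labelled arrays. Replicate 3 was thus the highest of the Cre-labelled group. It was also the highest for 8 of the 9 mesothelial genes, all but Krt19, though for Msln replicates 2 and 3 nearly tied (8.45 and 8.46). A part of heart tissue in these values was not tested. Heart is covered by an epicardium that shares Wt1, Upk3b and Aldh1a2 with mesothelium. Among the controls, replicate 1 had the highest cardiac mean and the lowest mean of the 9 genes, 7.62. With the cardiac mean as a covariate the difference of Msln was -1.60 and that of Krt19 -0.83, both called (limma adjusted p = 0.024 and 0.038). Those of Upk3b and Aldh1a2 were then -0.37 and -0.23, that of Lrrn4 was -0.50, that of Upk1b -0.27 and that of Gpm6a 0.02. Those of Wt1 and Bnc1 were 0.78 and 0.29, and none of these 7 was called (adjusted p 0.31 to 0.98).

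Liver genes also varied, with list means of 2.29 to 6.29 in the control-labelled and 2.83 to 5.45 in the Cre-labelled lungs. Within the Cre-labelled group they were highest on replicate 3. The skeletal muscle mean was 7.62 on control-labelled replicate 1 and 3.67 to 4.40 on the other 5 arrays. The lung mesenchyme list overlapped between groups (9.82 to 9.90 against 9.80 to 10.00), and the endothelial (9.93 to 10.04 against 9.44 to 9.81) and immune lists (8.26 to 8.41 against 7.77 to 7.93) were lower on all Cre-labelled arrays. The covariate fits adjust for list means only, and the part of these cells in the mesothelial values was not tested.

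**Figure D4:**
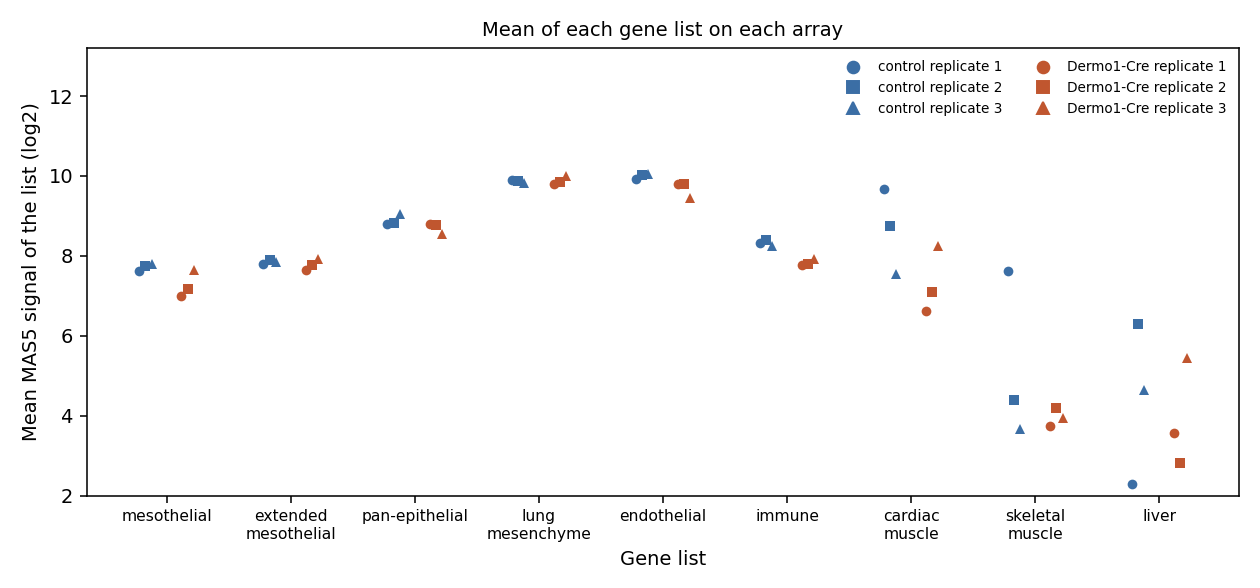
Mean MAS5 signal (log2) of each gene list on each array, blue for control-labelled and orange for Cre-labelled lungs, with marker shape for the replicate. The mean of the mesothelial genes runs from 6.99 to 7.65 in Cre-labelled and from 7.62 to 7.79 in control-labelled lungs, while cardiac muscle and liver means spread more widely in both groups and the skeletal muscle mean stands apart on control-labelled replicate 1 (7.62).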

How the data were processed

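Total RNA of 6 fetal lungs was labelled with biotin for Affymetrix arrays, per the labels. The tools named by the submitters' processing notes are MAS5 and affy, with no versions given. The authors' deposited values are log2 signals. Back on the linear scale, every array had a 2% trimmed mean of 150.04 to 150.05; any further scaling is not stated. MAS5 subtracts background, so low values are noisy. The number of arrays limits the precision.

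The 64 control probe sets were left out. Probe sets were named from the platform annotation, updated through RefSeq gene identifiers (34741 of 34945 with 1 symbol matched). The 27022 probe sets whose mean reached the 40th percentile entered limma 3.58.1 (R 4.3.3; eBayes with intensity trend, two-sided, 3 against 3 arrays). The fit was tested on simulated data. Lists held 127 entries, of which 123 matched. The rule named every mesothelial probe set, called list genes, the 4 list genes with the highest signal and the 8 most alike genes. Genes and lists were chosen with earlier results of these data known. The animals are labelled biological replicates. Alternatives covered scaling, offsets, filters, variance model, weights, covariates, the replicate block and single arrays left out. Figures used matplotlib 3.10.9.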

Additional observations from a re-analysis of the deposited data

How the results depend on the processing

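Over 329 alternative values of single probe sets and genes, 287 kept their direction and their side of the threshold, 33 lost the threshold, 2 passed it and 7 changed sign. Only values called in the main setting could lose the threshold, and most of the 329 were not called there. Of 17 alternative fits each, Msln, Calb2 and Lrrn3 passed in 16, Clu in 14, Tm4sf1 in 10, Krt19 in 8 and Nkain4 in 6. Over the array 963 probe sets were called in the main setting. The totals of the other fits were 171 without an intensity trend, 630 with the cardiac and 77 with the pan-epithelial covariate, 314 to 495 without 1 array, and 2120 at an adjusted p of 0.10. Of the 14 mesothelial probe sets 2 were called; 1 was called with a common median, without the filter and without the intensity trend, 0 with the pan-epithelial covariate and 1 to 3 without 1 array. With that covariate 6 of the 14 were lower at an unadjusted p under 0.05 in limma, against 5 of the 14 in the main setting. For that fit the share over all tested probe sets was not computed, and some of the 14 belong to the same gene. Msln was at -1.51 with that covariate (limma adjusted p = 0.060). Msln passed in the other 16 of 17 fits. Of the further mesothelial genes 4 were called. The totals were 2 with a common median, 1 without the intensity trend and 1 to 4 without 1 array. With the pan-epithelial covariate it was 1, Cpe (-1.16, adjusted p = 0.046), a gene not called before, and all 4 lost their call. Krt19 lost its call with a common median (-0.59), without the filter (-0.63), without the intensity trend (-0.63) and with the pan-epithelial covariate (-0.42), and ranged from -0.74 to -0.50 without 1 array. Upk3b ranged from -0.83 to -0.37 without 1 array. Bnc1 turned sign with array weights (-0.05) and the pan-epithelial covariate (-0.26), and ranged from -0.19 to 0.21 without 1 array. With the cardiac covariate the brightest Gpm6a probe set (0.02) and the dimmest Upk1b probe set (0.13) turned sign; that Upk1b probe set ranged from -0.32 to 0.04 without 1 array and another from -0.27 to 0.03. The log2 ratio of Msln to Upk3b, chosen with the one to Wt1 after seeing the data, differed between groups by -1.23 to -0.65 over 17 fits, and that to Wt1 by -2.38 to -1.54 over 16. The causes were not tested. At 3 against 3, exact tests reach no p below 0.10.

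The replicate numbers in the titles are not stated to pair the arrays. Some arrays, but not all, correlated best with their own number, so pairing was not settled. Deviations from the group mean of same-numbered arrays correlated at -0.014, 0.195 and 0.138. With the replicate block 1309 probe sets over the array, 2 mesothelial probe sets and 5 further mesothelial genes were called.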
